A study of Homo sapiens with 54 samples.

Results

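Gene expression of 9 secreted proteins of the liver and the yolk sac was examined across human pluripotent stem cell cultures and 1 differentiated culture. The 9 genes are ALB, AFP, APOA1, APOA2, APOB, TTR, FGB, SERPINA1 and RBP4, out of 19720 gene symbols that could be named on the arrays. They were found by matching the RefSeq accession of each probe to these symbols, which gave 10 of the 42405 probes, 2 of them for APOA1. The data cover 27 cultures on 2 one-colour arrays each, and the duplicate arrays were averaged and counted as 1 culture. H1, an established line of human embryonic stem cells (ESCs), was grown in E8 Medium, a defined medium without feeder cells that holds 2 ng/mL of TGF-beta 1 and 100 ng/mL of bFGF. Each of 3 experiments had 1 pre-culture and 3 arms of 4 days, in which bFGF was kept, was exchanged for FGFC at the same concentration of 100 ng/mL, or was left out. By the sample titles, pre-culture and arms were at passages 48 and 49 in experiment 1 and 50 and 51 in experiment 3. In experiment 2 they were at passages 49 and 59. FGFC is a chimeric protein made of parts of FGF1 and FGF2, and bFGF is FGF2. Long-term culture was done in 5 systems, each made up of a pre-culture and of 1 culture in either growth factor. The pre-culture of H1 in E8 Medium there is that of experiment 1. These were H1 in E8 Medium for 30 days at 100 ng/mL, H1 in mouse embryonic fibroblast (MEF)-conditioned medium for 41 days at 5 ng/mL, the ESC line KhES-1 on MEF feeder cells for 30 days at 5 ng/mL, the induced pluripotent stem cell (iPSC) line 201B7 on MEF feeder cells for 50 days at 10 ng/mL, and the iPSC line 253G1 in E8 Medium for 36 days at 100 ng/mL. The differentiated sample is 1 culture of H1 differentiated in vitro through embryoid bodies, and its labels give no medium or day. By the methods, embryoid bodies were grown in a medium with serum replacement and attached to gelatin for staining. Whether the culture put on the arrays was attached is not stated. Each long-term system is 1 line with 1 culture per condition, and the line, the medium and the FGF concentration change together between most of the systems.

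Hepatocytes and the visceral endoderm of the yolk sac secrete a shared set of plasma proteins, since both are epithelia that feed proteins and lipoproteins into a circulation. Alpha-fetoprotein (AFP) is the main plasma protein of the embryo, made by the yolk sac and the fetal liver, and albumin (ALB) replaces it after birth. Apolipoproteins A-I, A-II and B (APOA1, APOA2 and APOB) build high-density and low-density lipoproteins. Transthyretin (TTR) carries thyroid hormone and binds retinol-binding protein 4 (RBP4), which carries retinol. The fibrinogen beta chain (FGB) is part of the clotting protein fibrinogen, and alpha-1-antitrypsin (SERPINA1) inhibits neutrophil elastase.

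On the RefSeq annotation of GRCh38.p14, ALB lies at chr4:73404287-73421482 and AFP next to it at chr4:73436221-73456174, and FGB lies on the same chromosome at chr4:154562980-154572807. APOA1 is at chr11:116835751-116837622, APOA2 at chr1:161222292-161223628, APOB at chr2:21001429-21044073, TTR at chr18:31591877-31598821, RBP4 at chr10:93591694-93601744 and SERPINA1 at chr14:94376747-94390635. The arrays were designed on another build, so that no probe position is given. RefSeq promoter sequences of GRCh38.p14 were matched for 6 of the 9 genes. The sequences of AFP, ALB and APOA2 are shown, 3 of the genes described below in the long-term systems. Each is the 250 bases before the start of the gene, read 5′ to 3′ on the strand of the gene. AFP is on the plus strand at chr4:73435971-73436220, ALB on the plus strand at chr4:73404037-73404286, and APOA2 on the minus strand at chr1:161223629-161223878. Capitals mark matches, on either strand, to GTTAAT (a part of the site of the hepatic factor HNF1), AAAGTCC (a part of an HNF4 site), TGTTTAC (the core site of the FOXA factors) and TATAAA (the TATA box).
AFP: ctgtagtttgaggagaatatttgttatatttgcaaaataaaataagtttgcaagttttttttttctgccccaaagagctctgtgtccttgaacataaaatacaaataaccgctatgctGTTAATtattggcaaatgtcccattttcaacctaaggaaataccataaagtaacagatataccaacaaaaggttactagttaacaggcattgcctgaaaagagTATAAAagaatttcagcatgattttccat
ALB: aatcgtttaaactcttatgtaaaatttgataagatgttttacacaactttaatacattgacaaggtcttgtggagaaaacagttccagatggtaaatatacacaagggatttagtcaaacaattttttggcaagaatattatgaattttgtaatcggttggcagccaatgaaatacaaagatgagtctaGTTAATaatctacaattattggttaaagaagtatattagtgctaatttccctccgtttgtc
APOA2: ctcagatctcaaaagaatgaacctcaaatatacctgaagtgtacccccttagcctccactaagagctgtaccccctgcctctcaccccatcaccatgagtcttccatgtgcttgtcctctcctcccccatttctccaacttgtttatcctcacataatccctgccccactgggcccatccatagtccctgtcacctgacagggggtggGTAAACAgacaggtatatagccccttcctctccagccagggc
GTTAAT stood 127 to 132 bases before the start of AFP and 56 to 61 bases before that of ALB, and it was also present before FGB and 1 of the 2 starts of SERPINA1, so that 4 of the 6 genes held it. Counted by window, 5 of the 10 windows of these genes held it, and the overlapping windows of FGB hold the same site. Of all 35116 promoter windows of this length, 6.23% held these letters. TGTTTAC was found on the opposite strand of the APOA2 window (2.98% of all windows), TATAAA before AFP and RBP4 (10.7%), and AAAGTCC in none of the members' windows (3.2%). These matches describe the letters only, and no binding was measured here.

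Signal was expressed as log2 of the processed signal relative to the 75th percentile of the same array, so that 0 is that percentile. A probe was taken as measurable where the scanner software marked its signal as well above background. Signals of different probes cannot be set against each other, and each gene was therefore compared with itself across cultures. All cultures but differentiated H1 are called undifferentiated here, the 4-day cultures without FGF among them, although some pluripotency markers fell in those. Of the 52 arrays of undifferentiated cultures, AFP and the brightest APOA1 probe were well above background on 52, SERPINA1 on 50 and RBP4 on 48. APOA2 was well above background on 12, ALB on 8, APOB on 5, TTR on 3 and FGB on 0 of these arrays. In differentiated H1 all 9 genes were well above background on both arrays. The genes thus fell into those measurable in most undifferentiated cultures (AFP, APOA1, RBP4 and SERPINA1), those measurable in a few (ALB and APOA2) and those near or below the limit (APOB, TTR and FGB). The share of probes well above background was 56% to 79.2% per array, and it was 75.2% to 79.2% on the 6 arrays of H1 in MEF-conditioned medium, so that a dim signal passes more easily there. Pluripotency was checked with 7 marker genes (POU5F1, NANOG, SOX2, CRIPTO, LIN28A, DNMT3B and ZFP42). All 7 were well above background on every array, and 6 of them were lower 2-fold or more in differentiated H1 than in the pre-cultures, with POU5F1 lower by 39.5-fold.

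**Figure D1:**
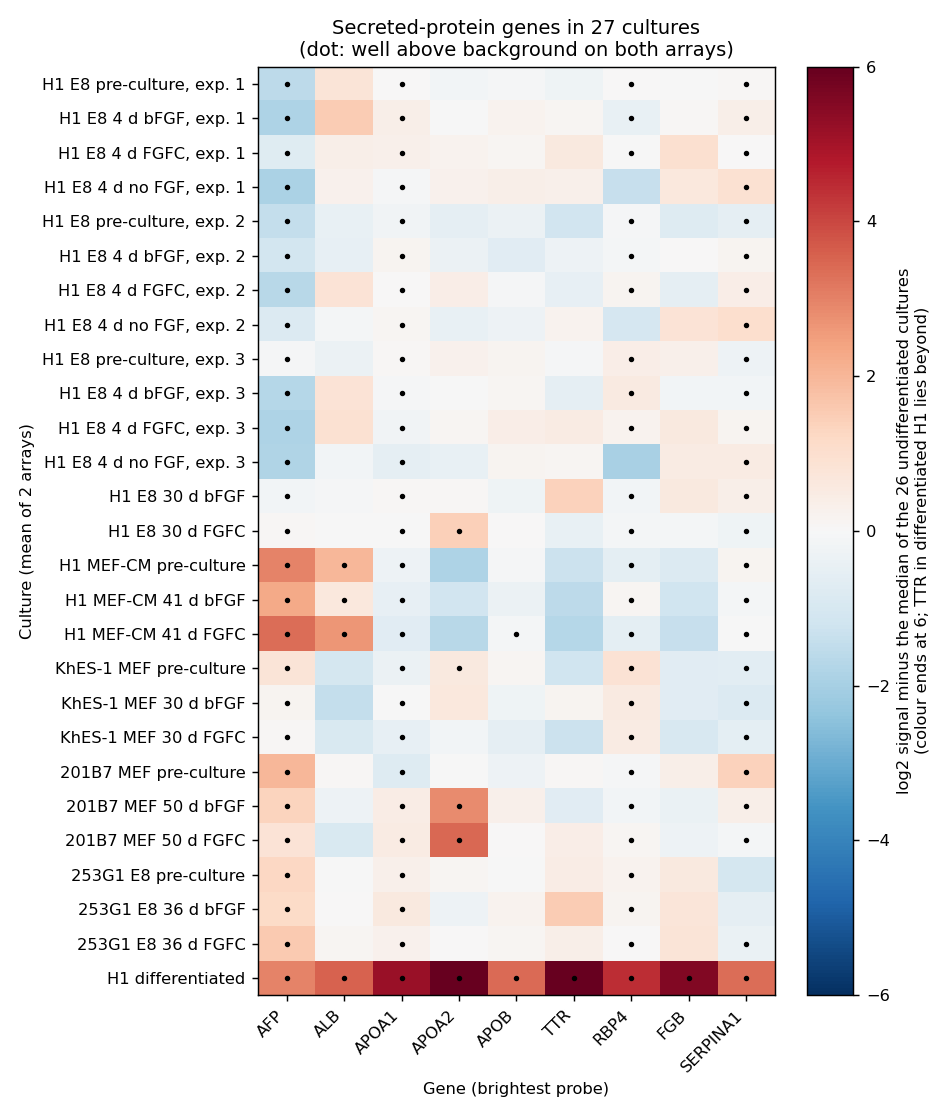
Heat map of the 9 genes (columns) in the 27 cultures (rows), as the log2 signal minus the median of the 26 undifferentiated cultures for the same gene, with a dot where the probe was well above background on both arrays. The differentiated culture is the highest for every gene but AFP, the 3 cultures in MEF-conditioned medium are high for AFP, and the 2 cultures of 201B7 at 50 days for APOA2.

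Differentiated H1 was compared with the 3 H1 pre-cultures to see which of the 9 genes the differentiated cells express. Each of the 9 genes was higher 2-fold or more in differentiated H1, where 14.3% of all 42405 probes were higher and 15.4% were lower by that much. The median difference of the 9 genes was 4.30 on the log2 scale against -0.12 for all probes. This is 1 culture without a replicate, so no test was made, and in bulk RNA a larger share of cells expressing a gene cannot be told apart from more RNA per cell. In 8 of the 9 genes the differentiated culture lay above all 26 undifferentiated cultures (13.5% of all probes did), and AFP was the exception.

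Of the carrier proteins, TTR had the largest difference. Its signal in the pre-cultures was -6.82, -7.71 and -6.64, not well above background on any of the 6 arrays, and 5.14 in differentiated H1, at least 2432-fold higher. The highest undifferentiated culture, 253G1 at 36 days with bFGF, had -5.05, and was not well above background on either array. RBP4, the partner of TTR, was -3.65, -3.73 and -3.30 in the pre-cultures and 0.74 in differentiated H1, 19.7-fold higher. STRA6, the membrane receptor for RBP4, was higher there as well, by 4.51-fold.

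AFP was -0.79, -0.64 and 0.72 in the pre-cultures and 3.79 in differentiated H1, 16.3-fold above their mean. The spread of AFP between pre-cultures (SD 0.83, n = 3) was the widest of the 4 genes measurable there. ALB, the postnatal counterpart of AFP, was -5.55, -6.77 and -6.68 in the pre-cultures, below the limit on all 6 arrays, and -2.78 in differentiated H1, at least 9.35-fold higher. The margin of ALB over the highest undifferentiated culture, H1 in MEF-conditioned medium with FGFC, was 0.90.

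The apolipoproteins were all higher. APOA1 was -2.81, -3.00 and -2.75 in the pre-cultures and 2.35 in differentiated H1, 36.8-fold higher, and its other probe had a mean of -5.75 in the pre-cultures and 1.14 in differentiated H1. APOA2 was -6.16, -6.52 and -5.74 against 1.45, a difference of 7.60, with 1 of the 6 pre-culture arrays well above background. APOB was -5.73, -6.04 and -5.52, below the limit on every array, against -2.27, at least 10.8-fold higher. MTTP, the transfer protein that loads lipid onto apolipoprotein B, was at least 12.8-fold higher. FGB was -7.03, -7.77 and -6.68 in the pre-cultures, below the limit, and -1.43 in differentiated H1, at least 25.6-fold higher. SERPINA1 was -3.37, -3.99 and -3.72 against -0.10, 12.1-fold higher. The lower bounds given for dim genes hold for this scaling. With normexp background correction, the log2 differences were 8.34 for TTR, 2.29 for FGB, 1.33 for APOB and 0.997 for ALB, and that of APOA2 was 4.61.

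**Figure D2:**
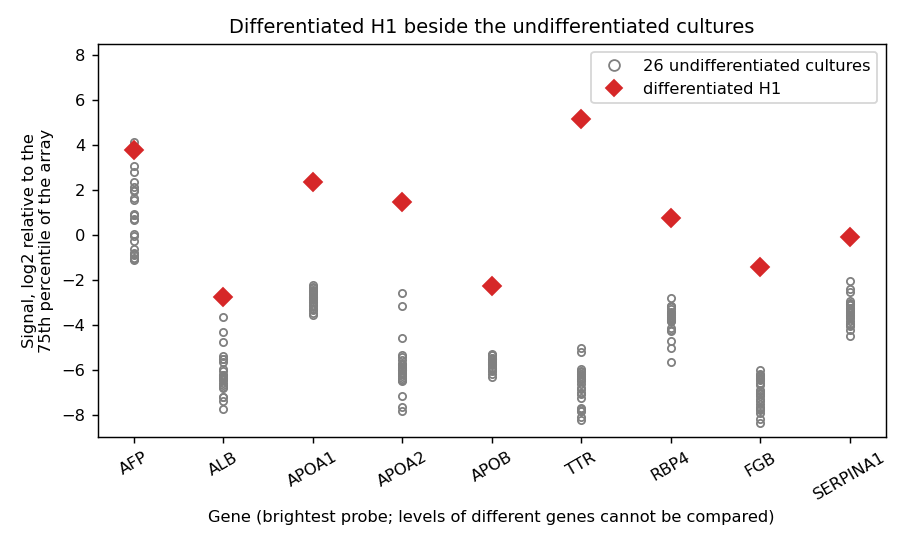
Signal (y axis, log2 relative to the 75th percentile of the array) of each of the 9 genes (x axis) in the 26 undifferentiated cultures (circles) and in differentiated H1 (diamond). The diamond lies above every circle for all genes but AFP, which was 4.14 in 1 culture in MEF-conditioned medium and 3.79 in differentiated H1.

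Other secreted proteins of liver and yolk sac were taken from a list of 40 genes, of which 39 had a probe. Of these, 17 were higher 2-fold or more in differentiated H1 and 6 were lower, with a median difference of 0.49. The 5 largest rises among genes well above background on both arrays were the apolipoproteins APOA4 (at least 88.4-fold) and APOC3 (at least 43.0-fold), the fibrinogen gamma chain FGG (60.7-fold), complement C5 (16.9-fold) and heparin cofactor SERPIND1 (at least 8.11-fold). AMBP, the precursor of alpha-1-microglobulin, was lower by 6.66-fold, complement C3 by 5.49-fold and alpha-2-antiplasmin SERPINF2 by at least 2.72-fold. The change was therefore not in one direction across plasma proteins. Among 22 endoderm and hepatic transcription factors, 9 were higher and 4 lower, with a median of 0.71. GATA6 was at least 110-fold and SOX17 at least 57.9-fold higher, and both act in early endoderm. TBX3, a regulator of hepatoblasts, was at least 38.3-fold higher, FOXA1 at least 9.40-fold and FOXA2, which opens chromatin at liver genes, 5.98-fold. NR5A2 was lower by 6.30-fold, FOXA3 by 5.41-fold and NR1H4, the bile acid receptor, by at least 3.40-fold. Of 18 receptors and partners of the 9 proteins, 5 were higher and 2 lower. The megalin partner cubilin (CUBN), which takes up apolipoprotein A-I and albumin in yolk sac and kidney, was higher by 27.7-fold and its adaptor DAB2 by 6.66-fold. Of 20 enzymes and receptors of mature hepatocytes, 5 were higher and 1 lower, with a median of 0.56. Tryptophan dioxygenase TDO2 was at least 20.1-fold and UGT2B7 at least 6.45-fold higher, while 9 of the 20 were well above background on both arrays.

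Markers of several other cell types were also high in differentiated H1, where 14.3% of all probes were higher 2-fold or more. All 7 markers of trophoblast and amnion (CGA at least 1003-fold) and all 6 of neural cells (PAX6 at least 233-fold) were higher by that much. So were 5 of 6 of fibroblasts (LUM at least 1016-fold), 5 of 7 of visceral and parietal endoderm and 4 of 6 of cardiac and smooth muscle cells. Of intestinal epithelium only 1 of 4 (CDX2) was higher, and of erythroid and blood cells 1 of 5 (HBE1). The median differences of these last lists were 0.30 and -0.49. The pluripotency markers were still measurable, with a summed signal of 4.90 on the log2 scale against at least 8.73 in the pre-cultures. The part of any of these cell types in the signal of the 9 genes was not tested.

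AFP was well above background on every array and differed widely between undifferentiated cultures. The 14 cultures of H1 in E8 Medium lay between -1.11 and 0.87 (median -0.71). KhES-1 on feeder cells had 1.54 in the pre-culture, 0.94 with bFGF and 0.88 with FGFC. 253G1 in E8 Medium had 2.02, 1.95 and 2.36 in the same order, and 201B7 on feeder cells had 2.78, 2.12 and 1.63. H1 in MEF-conditioned medium had 3.78, 3.07 and 4.14, which takes in the value of differentiated H1. The order of the systems was thus H1 in E8, KhES-1, the pair of iPSC lines, and H1 in MEF-conditioned medium. The ranges of 201B7 and 253G1 overlapped, and the lowest KhES-1 culture was level with the highest H1 culture in E8 Medium. The duplicate arrays of a culture differed by a median of 0.10.

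**Figure D3:**
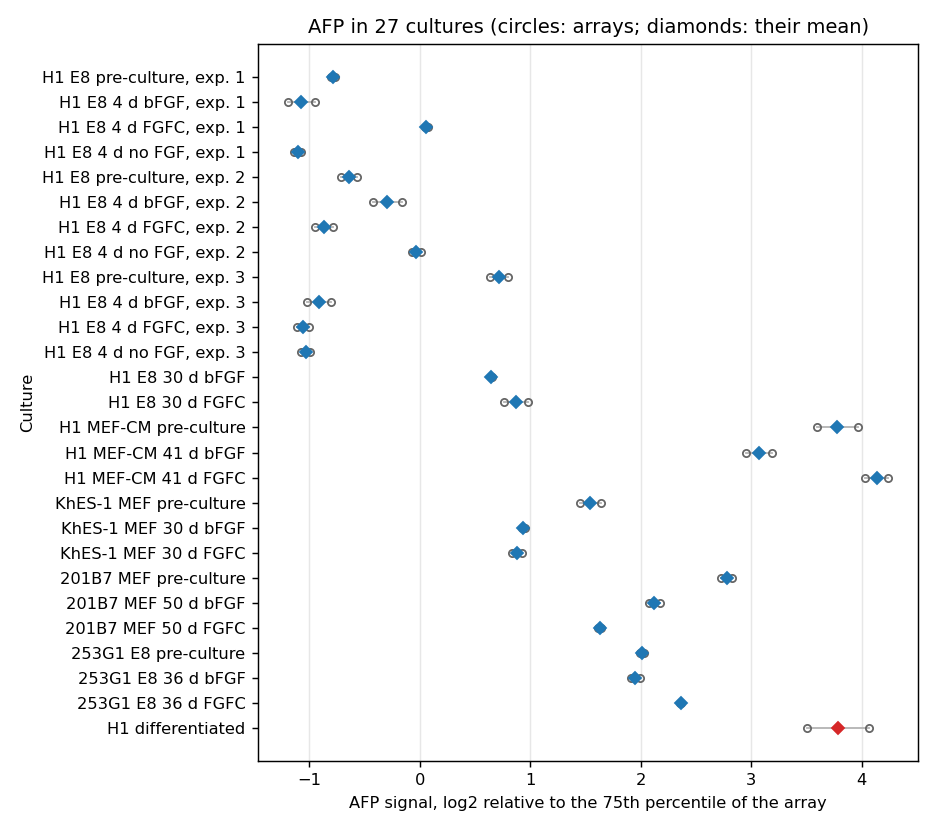
AFP signal (x axis, log2 relative to the 75th percentile of the array) in the 27 cultures (y axis), with circles for the 2 arrays and a diamond for their mean, red for differentiated H1. The 3 cultures in MEF-conditioned medium lie at 3.07 to 4.14 beside differentiated H1 at 3.79, and H1 cultures in E8 Medium lie at or below 0.87.

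H1 in MEF-conditioned medium was set against H1 in E8 Medium, the same line in another medium and at a lower FGF concentration, with 3 cultures of each system. In limma, over the 15 long-term cultures with the 5 systems as groups, 5 of the 9 genes passed an adjusted p of 0.05, 2 higher and 3 lower, where 28.6% of all 42400 probes tested passed (7.8% higher and 20.8% lower). AFP was higher by 3.42 ± 0.42 (SE), from 0.24 ± 0.90 (SD, n = 3) to 3.66 ± 0.54 (SD, n = 3), with an adjusted p of 0.000134. The groups did not overlap, as for 43.7% of all probes, and AFP passed under all 14 alternatives, with adjusted p from 1.32e-07 to 0.00117. ALB was -4.34, -5.68 and -3.68 in MEF-conditioned medium, well above background on all 6 arrays, and -5.55, -6.39 and -6.36 in E8 Medium, where it was below the limit on all 6. ALB was at least 1.95-fold higher, with an adjusted p of 0.0137 by limma, and the groups overlapped, since the culture with bFGF at 41 days was below the E8 pre-culture. ALB did not pass without the 41-day FGFC culture (adjusted p = 0.0712), without the 30-day bFGF culture (0.055), with the first arrays alone (0.0782), with a floor at the lowest measurable signal (0.65) or with normexp background correction (0.743), and adjusted p ranged from 0.00144 to 0.743 over the 14 alternatives. The 3 genes with a lower signal were APOA2, TTR and FGB, and none of them was well above background in MEF-conditioned medium. FGB was below the limit on all 12 arrays, TTR was above it on 1 and APOA2 on 2 of the 6 arrays in E8 Medium, so that no fold is given for FGB. All 3 calls were lost with quantile normalization, which also moved the split over all probes from 3309 higher and 8832 lower to 3395 higher and 3252 lower (8.01% and 7.67%). APOA2 was lost in addition when any 1 of 5 of the 6 cultures was left out, all but the E8 pre-culture.

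Secreted proteins outside the 9 did not all follow AFP in MEF-conditioned medium. Of the 39 in the list, 2 were higher, the vitamin D carrier GC (at least 2.48-fold) and kininogen KNG1 (difference 1.88), and 19 were lower, with a median difference of -0.82 against -0.15 for all probes. Of all probes 7.8% were higher and 20.8% lower. Only 12 of the 39 were well above background on every array in E8 Medium, and 22 in MEF-conditioned medium. Falls of dim genes depend on the scaling, since quantile normalization cut the lower calls over all probes from 8832 to 3252. Among the lower genes measurable on all 12 arrays were F10 (-2.16), ITIH4 (-2.09), AMBP (-1.75) and C3 (4.27-fold). Of the transcription factors, TBX3 (at least 3.43-fold), HHEX (at least 1.36-fold) and NR5A2 (0.79) were higher, and ONECUT1 (-2.69) and HNF4A, which was below the limit in both media, were lower. Of the partners of the 9 proteins, FCGRT, the receptor that recycles albumin, was higher by 0.49 and LCAT, the enzyme that esterifies cholesterol on lipoproteins, by 1.51, and 7 were lower, STRA6 (-1.60) and PLTP (-1.37) among them. Cardiac and smooth muscle markers moved with AFP: 4 of 6 were higher, ACTA2 by 71.7-fold and TAGLN by 11.0-fold, and their summed signal was 5.37 to 6.14 in MEF-conditioned medium against 1.71 to 2.80 in E8 Medium. The summed signal of the visceral and parietal endoderm markers was 5.61 to 5.79 against 4.86 to 5.52, with 3 of 7 higher and 1 lower. Fibroblast markers had 4.44 to 4.82 against 2.38 to 3.32, with 2 of 6 higher (COL1A1 by 5.12-fold) and 2 lower. The summed neural markers were 5.00 to 5.44, above all 3 cultures in E8 Medium (lowest 3.13), with 1 of 6 higher (TUBB3 by 3.13-fold) and 4 lower. The part of these cells in the AFP signal was not tested. Both media were on separate slides and scan days, and FGF was at 5 ng/mL in MEF-conditioned medium and at 100 ng/mL in E8 Medium. Slide, scan day and FGF concentration cannot be told apart from the medium.

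The 6 cultures on feeder cells (KhES-1 and 201B7) were set against the 6 in E8 Medium (H1 and 253G1) of the long-term systems, with the system as a random block in limma. None of the 9 genes passed, where 0.366% of all probes did (8191 of 42400, 19.3%, at an unadjusted p under 0.05, FGB among them). APOA2 had the largest difference, 1.03 ± 0.99 (SE), with an adjusted p of 0.623 and a 95% interval from -1.08 to 3.14. AFP differed by 0.47 ± 0.69 (SE, adjusted p = 0.769), as the E8 systems held both its low values in H1 and its high values in 253G1. Within the iPSC lines alone, APOA2 passed as higher in 201B7 on feeder cells than in 253G1 in E8 Medium (adjusted p = 0.0292 by limma), where 253G1 was below the limit on all 6 arrays and the 201B7 pre-culture, at -6.03, was below it as well. Within the ESC lines alone the adjusted p was 0.921, with values in the other direction. The line and the culture surface cannot be told apart in either pair. The other APOA1 probe was above the limit on 10 of 12 arrays on feeder cells and on 0 of 12 in E8 Medium, without passing (adjusted p = 0.387). These counts depend on the limit of the arrays. Its mean was -5.115 in KhES-1 (6 of 6 arrays), -4.05 in 201B7 (4 of 6), -5.37 in 253G1 (0 of 6) and -5.55 in H1 in E8 Medium (0 of 6). In H1 in MEF-conditioned medium it was -5.35, above the limit on 6 of 6. Outside 201B7, the KhES-1 pre-culture had measurable APOA2 on both arrays (-5.42), and H1 in E8 Medium after 30 days with FGFC had -4.58, above the limit on both arrays.

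APOA2 and APOA1 stood out in the 201B7 cultures after 50 days, a comparison chosen after the values were seen and given without a test. APOA2 was -6.03 in the pre-culture, below the limit on both arrays, -3.17 with bFGF and -2.57 with FGFC, above the limit on all 4 arrays and at least 6.18-fold higher in mean. The other 24 undifferentiated cultures had -7.85 to -4.58, so that neither 50-day culture overlapped with them. APOA1 was -3.58 in the pre-culture and -2.37 and -2.32 at 50 days by its brightest probe. By its other probe it was -5.11, -3.53 and -3.50, and by this probe the 50-day cultures were also above the other 24, which reached -4.67, whereas by the brightest probe they were not. SERPINA1 went the other way, from -2.08, the highest of all undifferentiated cultures, to -3.08 and -3.57. The other 6 genes did not differ 2-fold in both 50-day cultures. Thus 2 of the 9 genes were higher 2-fold or more in both, where 1.58% of all probes were, and 1 was lower, where 7.29% were.

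Of 22 endoderm and hepatic transcription factors, 5 were higher 2-fold or more in both 50-day cultures, 1 (CEBPB) was lower and 16 were neither, with a median log2 difference of 0.06. SOX17 was -4.97 in the pre-culture and -0.84 and -0.85 at 50 days. GATA6 was -5.74 in the pre-culture, below the limit, and -1.79 and -1.86 at 50 days, at least 10.4-fold higher. Both genes were above all other 24 undifferentiated cultures, of which KhES-1 before culture was the highest, with -2.24 for SOX17 and -3.88 for GATA6. FOXA2 (-3.25, then -1.94 and -1.91), HHEX (-5.71, then -3.64 and -3.02) and PPARA (-5.44, then -4.00 and -3.31) were higher as well, at levels reached among the other 24 cultures. For HHEX the highest of these, -1.53, was H1 without FGF in experiment 1. None of the 39 other secreted proteins was higher 2-fold in both, nor was any of the 20 mature hepatocyte genes, where 1.58% of all probes were. At that share few or no genes would be higher in lists of this size, so these counts do not differ from all probes. At 50 days ALB and FGB were below the limit on all 4 arrays and TTR was above it on 1. The summed fibroblast markers were 7.49 in the pre-culture, 6.69 with bFGF and 5.62 with FGFC, against 2.38 to 4.82 in the other long-term systems, and the summed pluripotency markers were 9.41, 9.47 and 9.61. The pre-culture arrays were dimmer, with a 75th percentile of 182 and 234 against 504 to 632 at 50 days, and lay on another slide and scan day, so that slide and time in culture cannot be told apart. With normexp background correction the differences of APOA1 turned to -0.12 and -0.049 and that of APOA2 with bFGF to -0.17.

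**Figure D4:**
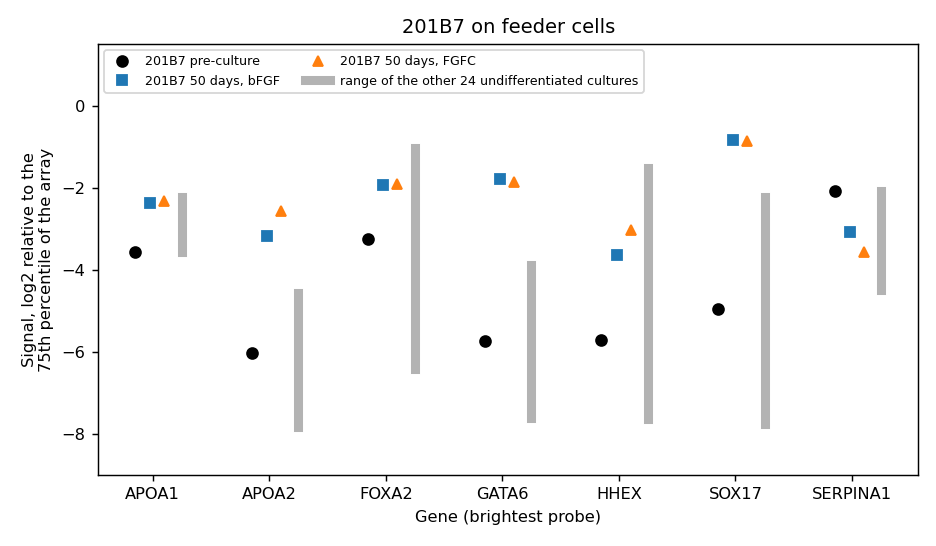
Signal (y axis, log2 relative to the 75th percentile of the array) of APOA1, APOA2, SERPINA1 and 4 endoderm transcription factors (x axis) in 201B7 on feeder cells before culture and after 50 days with bFGF or FGFC, with grey bars for the range of the other 24 undifferentiated cultures. At 50 days APOA2, GATA6 and SOX17 lie above the grey bars.

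The 4-day arms of H1 in E8 Medium were compared to see whether the 9 genes responded to removal of FGF or to its replacement by FGFC. Without FGF, 1 of the 9 genes passed the test against bFGF, where 12.7% of all 42405 probes passed (5.54% higher and 7.19% lower), and the same gene passed against FGFC, where 10.8% of probes passed (4.72% higher and 6.07% lower). This gene was RBP4. With bFGF it was -4.15, -3.78 and -3.16, in the FGFC arm -3.70, -3.50 and -3.46, and without FGF -5.04, -4.70 and -5.65. All 3 cultures without FGF were below all 6 with FGF and below the 3 pre-cultures. Of all probes, 42.3% had groups without overlap, in either direction, between the arms without FGF and with bFGF, and 25.5% between those without FGF and with FGFC. RBP4 fell by 1.44 ± 0.29 (SE) against bFGF, 2.71-fold, with an adjusted p of 0.00689 by limma, and by 1.58 ± 0.29 (SE) against FGFC, 2.99-fold, with an adjusted p of 0.0045. The call against FGFC was lost with a floor (adjusted p = 0.0611), without experiment 2 (0.0527) and without experiment 3 (0.0615). Within each experiment it was lower in 3 of 3, by -0.89, -0.93 and -2.49 against bFGF. Without FGF it was well above background on only 2 of 6 arrays, against all 6 in each other arm. The call against bFGF was lost with the slide as a block (adjusted p = 0.0588), without experiment 2 (0.052) or 3 (0.143), with a floor at the lowest measurable signal (0.118) and with normexp correction (0.132), and it held under the other 8 of 13 alternatives, with a lowest adjusted p of 0.00195. On the slides shared by both arms, those of experiments 1 and 3, the differences were the -0.89 and -2.49 given above.

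SERPINA1 had values in the opposite direction. With bFGF it was -3.11, -3.27 and -3.61, in the FGFC arm -3.42, -3.04 and -3.30, and without FGF -2.55, -2.41 and -2.95, above the limit on all arrays. The 3 cultures without FGF were above all 6 others. Against bFGF alone the groups did not overlap, in either direction, for 42.3% of all probes, and against FGFC alone for 25.5%. The difference from bFGF was 0.70 ± 0.22 (SE) and did not pass, with an adjusted p of 0.0667 by limma. It passed with quantile normalization (0.00871), with normexp correction (0.0286) and when only probes well above background were tested (0.0294), over alternatives that reached up to 0.33. No difference was measured for AFP, which was -1.07, -0.29 and -0.91 with bFGF and -1.10, -0.03 and -1.03 without FGF, a difference of 0.03 with a 95% interval from -0.96 to 1.03 (adjusted p = 0.974). APOA1 differed by -0.31 on its brightest probe, with a 95% interval from -0.78 to 0.16. In the 4-day cultures ALB was above the limit on 2 arrays, APOA2 on 1 and APOB, TTR and FGB on 0, so that a response of these genes could not be measured at this signal.

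**Figure D5:**
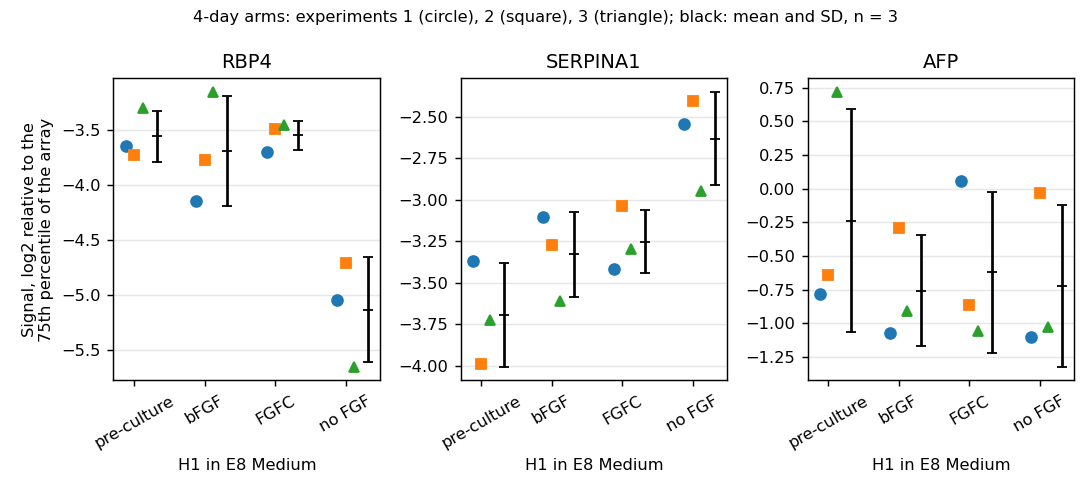
RBP4, SERPINA1 and AFP (panels) in the 12 H1 cultures in E8 Medium, as log2 signal relative to the 75th percentile of the array (y axis; the range differs by panel), by arm (x axis), with a symbol per experiment and a black mark for the mean with its SD (n = 3). The 3 RBP4 values without FGF, -5.65 to -4.70, lie below all others, and those of SERPINA1, -2.95 to -2.41, lie above.

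Genes around the 9 proteins showed changes in both directions without FGF. Of the other secreted proteins, 5 of 39 rose and 4 fell against bFGF (median -0.13, against 0.01 for all probes). C3 fell by 1.86, CP by 1.67 and AMBP by 2.81-fold. C5 rose by 1.38 and GC was at least 2.16-fold higher. TF passed the test as well but was below the limit in both arms, so that no change was measured. Of the transcription factors 3 rose and 4 fell. ONECUT1, which regulates liver and pancreas genes, fell by 5.58, NR5A2, a nuclear receptor of pluripotent cells and liver, by 4.34 and ONECUT2 by 1.94, while TBX3 was at least 7.47-fold and HHEX at least 4.69-fold higher and CREB3L3 rose by 0.75. Of the 18 partners, MTTP was at least 2.93-fold higher and ABCA1, which lipidates apolipoprotein A-I, rose by 2.04, and lipoprotein lipase LPL (2.42), the high-density lipoprotein receptor SCARB1 (1.09) and PLTP (0.65) fell by these amounts. Of the mature hepatocyte genes 1 rose (CPS1, 1.13) and 2 fell (ASGR2 by 1.08 and ASGR1 by 1.00), shares near the 5.54% and 7.19% of all probes. In the same arms 3 of 6 neural markers were higher and 0 lower (PAX6 at least 37.7-fold), as were 3 of 7 markers of trophoblast and amnion (GATA3 at least 20.1-fold). Of the 7 pluripotency markers 3 fell (CRIPTO by 3.32, NANOG by 1.71 and POU5F1 by 1.08) and SOX2 rose by 1.32. Their part in the changes of RBP4 was not tested. Against FGFC, the other secreted proteins gave 2 rises and 4 falls, the transcription factors 3 and 4, the partners 2 and 3 and the mature hepatocyte genes 1 and 2.

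FGFC was set against bFGF at 4 days and in the long-term systems. At 4 days 0 of the 9 genes and 0 of 42405 probes passed limma's test (0.0%), with 1262 probes (2.98%) at an unadjusted p under 0.05 and none of the 9 genes among them. RBP4 differed by 0.14 (95% interval -0.49 to 0.77), SERPINA1 by 0.08 (-0.41 to 0.57), APOA1 by -0.10 (-0.57 to 0.37) and AFP by 0.14 (-0.86 to 1.13). The interval of AFP reaches past a 2-fold higher level with FGFC, so that a difference of that size could not be told from the spread between cultures. In the long-term systems, with the system as a block, 0 of the 9 genes and 0 of 42402 probes passed (0.0%), with 2536 (5.98%) at an unadjusted p under 0.05. AFP differed by 0.23 (-0.30 to 0.76), and was higher with FGFC in 3 of 5 systems. RBP4 differed by -0.10 (-0.46 to 0.26), SERPINA1 by -0.13 (-0.51 to 0.25) and APOA1 by -0.20 (-0.46 to 0.06). TTR had the largest difference of the 9 genes, -0.69 (-1.71 to 0.32), and was higher with FGFC in 1 of 5 systems. It was well above background on only 1 of 10 arrays with FGFC and 2 of 10 with bFGF. In MEF-conditioned medium ALB was 2.00 and AFP 1.07 higher with FGFC, where 1.42% of all probes were higher 2-fold or more. For APOA2, H1 kept in E8 Medium had -5.96 with bFGF, below the limit, and -4.58 with FGFC. Both are 1 culture against 1, on different slides, and have no replicate.

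The genes most like each member were sought among probes measurable on both arrays of at least 1 culture, by Pearson's r across cultures that share lines, media and array slides. Over all 27 cultures the single differentiated culture sets the pattern: TTR was most like LUM (r = 0.99), FGB like CLIC5 (r = 0.996) and APOA1 like TTR (r = 0.95). Over the 26 undifferentiated cultures, DNM3 and RANGAP1 were among the 3 genes most like AFP (r = 0.94 for both). SERPINA1 was most like GPER1 (0.89), RBP4 like BFSP1 (0.88) and APOA1 like FSIP1 (0.75). ALB was measurable on both arrays in only 3 and APOA2 in only 4 of these cultures, so that their likeness to other genes rests mostly on signals near background and is not given.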

How the data were processed

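RNA was measured on 54 one-colour Agilent arrays, 2 for each of 27 cultures. The authors deposited the output of Feature Extraction 10.7.3.1, whose processed signal intensity is background-subtracted, linear and not scaled between arrays, and the deposited series table holds the same intensity values. The deposited median signal and background intensity of each spot were used for the normexp alternative, and the authors' scanner marks (outlier, saturated, well above background) are other, yes or no values. Control spots (4259 of 62976 per array) and outlier spots (266 to 623) were left out, and 0 spots were saturated. Signals were set to at least 1, log2 transformed and averaged where a probe had several spots, and each array's 75th percentile (181.5 to 913.5 on the linear scale) was taken off. A probe was well above background where at least a share of 0.5 of its spots was marked. The number of arrays limits the precision. Symbols came from RefSeq accessions (25715 of 42405 probes), and where a gene had several probes the brightest over all arrays was used.

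Duplicate arrays (r of 0.978 to 0.993) were averaged. Groups came from the sample titles, and for some arrays of experiment 3 the passage number differs between label fields. Nothing in the sources used here says that the cultures of 1 system are independent, so p-values measure the spread between these cultures. limma 3.58.1 in R 4.3.3 (lmFit, eBayes, two-sided, Benjamini-Hochberg over all probes, threshold 0.05) was used, and was tested on simulated data. The 4-day arms were fitted over 12 cultures without a block. Experiment numbers in the titles were taken to pair the arms: deviations of 2 arms of one experiment from their arm means correlated at 0.0769 to 0.321 over 9 values. Differentiated H1 was compared by a 2-fold rule on means. An "at least" fold stands where no array of one group was well above background, and is taken, array by array, against the lowest measurable signal or the probe's own, whichever is higher. The alternatives were quantile normalization, normexp with an offset of 50, a floor, a filter on dim probes, single arrays, the mean over a gene's probes, the replicate and slide blocks, other reference cultures and leaving out cultures or systems. All 9 genes are named, with up to 3 rises and falls past the test per list and, for differentiated H1, up to 5 rises and 3 falls, plus genes a result turns on, and 1 gene among those most like AFP is not reported here. The 9 genes, the lists and the tests were chosen with earlier results of these data known. Other steps used Python 3.11.15, numpy 2.4.6 and pandas 2.3.3, and matplotlib 3.10.9 for figures.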

Additional observations from a re-analysis of the deposited data

Results flagged for a closer look

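Each of the 9 genes was checked for 1 culture far from the rest in 4 sets of 5 or 6 long-term cultures (36 checks, by Dixon's test at the 95% level), and chance gives about 1 in 20. There were 3 such cultures. ALB in H1 after 41 days in MEF-conditioned medium with FGFC had -3.68, where the next of the 5 cultures with FGFC had -6.22. ALB in the H1 pre-culture of experiment 1 had -5.55 among the 6 long-term cultures in E8 Medium, against -6.22 for the next, and was below the limit on both arrays. APOA2 in H1 after 30 days in E8 Medium with FGFC had -4.58, against -5.91 for the next of the 6, and was above the limit on both arrays.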

How the results depend on the processing

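Of the 9 genes, 1 passed in the arms without FGF against those with bFGF. The number was 2 with quantile normalization and 2 with only probes well above background, where SERPINA1 passed beside RBP4. It was also 2 with only the 2 arms compared, where the second gene was FGB (adjusted p = 0.0266 by limma). FGB was below the limit on every array of both arms, so that no change was measured for it. The number was 0 with a floor and 0 with the slide as a block, and 0 to 1 when 1 experiment was left out. It was 1 with normexp correction, but there the gene was SERPINA1 and not RBP4. With the experiment number as a replicate block it was 1, RBP4, with an adjusted p of 0.0123 (limma), and against FGFC 0.0089, and the block changed no call. Against FGFC the number was 2 with quantile normalization and 2 with only probes well above background, 0 with a floor, and 0 to 1 when 1 experiment was left out. RBP4 against FGFC had an adjusted p of 0.0611 with the floor, 0.0527 without experiment 2 and 0.0615 without experiment 3. FGFC against bFGF gave 0 genes under every alternative run, at 4 days and in the long-term systems. Feeder against E8 systems gave 0 genes in the main fit and 3 with the 5 systems as fixed groups (ALB, FGB and TTR, all lower and dim), 3 for the iPSC lines alone (APOA2 and SERPINA1 higher, FGB lower) and 3 for the ESC lines alone (RBP4 higher, ALB and FGB lower). The difference of APOA2 reversed to -0.089 for the ESC lines alone. For H1 in MEF-conditioned medium against E8 Medium, 5 genes passed, with 2 under quantile normalization, 2 under normexp correction, 2 with only probes well above background, 2 with the first arrays, and 2 to 5 when 1 culture was left out. Differentiated H1 was higher 2-fold or more in 9 genes, and in 8 or 9 under each alternative, since ALB was higher by 0.997 log2 units with normexp correction. In 201B7 at 50 days against its pre-culture, normexp correction turned the difference of APOA1 to -0.12 with bFGF and -0.049 with FGFC, that of its other probe to -0.46 and -0.54, and that of APOA2 with bFGF to -0.17. These alternatives were added after seeing the data. Normexp adds the same 50 to each array, which is a larger part of the signal on the dimmer pre-culture arrays. The part of this in the changed differences was not tested. Over all probes, 5400 passed without FGF against bFGF, with 9750 when only these arms were fitted and 1272 to 3557 when 1 experiment was left out, and 4575 passed against FGFC, with 2553 and as few as 974. For MEF-conditioned medium 12141 probes passed, with 6647 under quantile normalization, 3790 under normexp correction (1602 higher and 2188 lower), 18976 with a floor (3381 higher and 15595 lower) and 5928 with only probes well above background. For feeder against E8 systems 155 passed, with 598 under quantile normalization, 248 under normexp correction, 72 with a floor, 19097 with fixed systems, 14590 for the iPSC lines, 21121 for the ESC lines, 20 with bFGF cultures alone and 0 with 1 mean per system. Most members' signals in undifferentiated cultures lie near the background, which limits what could be measured.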
